A study of Mus musculus with 11 samples.

Results

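The genes described here are 9 of the cation-chloride cotransporter family and its regulation. The family members are Slc12a2 (NKCC1), Slc12a5 (KCC2), Slc12a4 (KCC1), Slc12a7 (KCC4) and their relative Slc12a9. The others are the kinases Wnk1, Wnk2, Stk39 (SPAK) and Oxsr1 (OSR1). All 9 are described by RNA level. The 9 genes were chosen by symbol from a table of 22377 genes, and each symbol was found there. Levels come from CAGE (cap analysis of gene expression), which counts 1 short tag at the capped 5′ end of each RNA, and are given in CPM, tags scaled to a library's total. Because a transcript gives the same tag whatever its length, CPM of different genes can be set side by side.

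The tissue is whole cerebral cortex of male C57BL/6N mice, with no engineered allele named in any group. Stroke was made by photothrombosis: the dye rose bengal is injected and light on the left parietal cortex clots the vessels under it. There are 11 libraries and 1 per group: naive cortex, and then the infarcted and the non-infarcted side in 5 states. The states are 7 d after stroke, 7 d with levetiracetam (LEV, a drug against seizures whose target is the vesicle protein SV2A), 1 m, 1 m with LEV, and 2 m with LEV withdrawn for 2 weeks. There is no naive library with LEV and no library at 2 m without earlier LEV. The design text starts LEV later and withdraws it for a shorter time than these labels; the labels are followed here. It also names young and old mice, which the labels do not assign to libraries, and neither source says how many mice gave a library or whether the sides of a state come from the same mice.

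Chloride sets the direction of the current through GABA-A receptors. NKCC1 carries chloride into cells with sodium and potassium, and KCC2, which is largely restricted to neurons, carries it out with potassium, so mature neurons with much KCC2 are inhibited by GABA. KCC1 and KCC4 are exporters found in many cell types, often tied to cell volume, and the protein of Slc12a9 is a relative whose cargo is less well known. WNK kinases activate SPAK and OSR1, which phosphorylate the cotransporters; this stimulates NKCC1 and inhibits the KCCs. RNA levels say nothing of that phosphorylation.

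Because CAGE tags mark promoters, the 120 bases before the start of 3 of these genes are printed: Slc12a5, because the table adds tags of its alternative starts into 1 value, Slc12a7, which fell on the infarcted side between 7 d and 1 m, and Stk39, whose difference between the sides was called between these times. The sequences come from RefSeq on GRCm38.p6 and read 5′ to 3′ on the gene's strand. Capitals mark a GC box (GGGCGG, or CCGCCC on the other strand) or an E-box (CACGTG).
Slc12a5, upstream start, plus strand, chr2:164960726-164960845: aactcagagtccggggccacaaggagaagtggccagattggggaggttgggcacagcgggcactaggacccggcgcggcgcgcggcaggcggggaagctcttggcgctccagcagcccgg
Slc12a5, downstream start, plus strand, chr2:164967868-164967987: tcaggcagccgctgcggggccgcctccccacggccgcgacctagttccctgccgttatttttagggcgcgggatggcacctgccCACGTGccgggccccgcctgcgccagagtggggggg
Slc12a7, plus strand, chr13:73763577-73763696: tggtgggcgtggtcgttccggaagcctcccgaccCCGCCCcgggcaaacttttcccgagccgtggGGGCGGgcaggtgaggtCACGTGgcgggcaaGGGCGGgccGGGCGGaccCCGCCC
Stk39, minus strand, chr2:68471982-68472101: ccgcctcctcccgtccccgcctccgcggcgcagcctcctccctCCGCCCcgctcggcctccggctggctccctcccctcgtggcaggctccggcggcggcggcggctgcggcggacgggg

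The Slc12a5 starts lie 7142 bases apart. The printed stretch before the upstream one holds neither motif, and that before the downstream one an E-box. The KCC2a and KCC2b forms differ in their first exon, so a shift between such starts would not be seen in the gene's summed value. Slc12a7 and Stk39 are summed likewise, over 10 and 8 annotated transcript starts, so their values do not show which start gave the tags. The printed Slc12a7 stretch lies inside that gene's annotated span. The Slc12a7 stretch holds 5 GC boxes and 1 E-box, and the Stk39 stretch 1 GC box. RefSeq windows were matched by symbol for 8 of the 9 genes, 10 windows in all. Over 250 bases before the start their GC content ran from 51.6% to 82.4%, with Stk39 the highest. The median over 32851 windows of that length was 52.4%. On either strand, a GC box was in 8 of the 10 windows against 32.7% of all, and an E-box in 3 against 6.02%. A TATA box (TATAAA) was in 0 of the 10 against 12.4% of all windows, an EGR site (GCGTGGGCG) in 0 against 0.536%, and a cAMP response element (TGACGTCA) in 1, that of Oxsr1, against 1.55%. Slc12a7 and Slc12a5 have more than 1 window, and the windows of a gene are not independent. These counts include the windows of Slc12a4 and Wnk2 and the unprinted one of Slc12a7. For those, the first bases after the start were not found in a GENCODE M21 transcript of the gene.

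Each of the 9 genes was measured in every library. In GRCm38, with the GENCODE M21 annotation, Slc12a5 (ENSMUSG00000017740) spans chr2:164960802-164999731 on the plus strand and Stk39 (ENSMUSG00000027030) chr2:68210445-68472268 on the minus strand. Slc12a7 (ENSMUSG00000017756, plus strand) spans chr13:73733094-73816754 and Wnk2 (ENSMUSG00000037989, minus strand) chr13:49036303-49148014. Slc12a4 spans chr8:105943590-105966097, Slc12a9 chr5:137314558-137333597, Wnk1 chr6:119923969-120038672 and Oxsr1 chr9:119238432-119322427, all on the minus strand. All are protein coding, and the values given are sums over each whole gene.

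KCC2 RNA was far the most abundant: Slc12a5 ran from 293 to 475 CPM over the 11 libraries, rank 368 of 22377 genes by mean. The kinases Wnk2, with 41.7 to 94.0 CPM, and Stk39, with 55.7 to 73.7 CPM, came next, and their ranges overlap. Oxsr1, at 38.1 to 51.6 CPM, was above Wnk1, at 26.3 to 38.1 CPM, in all libraries except the infarcted one at 7 d, where both had 632 tags. Slc12a2, at 15.9 to 41.6 CPM, overlapped both Wnk1 and Oxsr1. The other members of the cotransporter family were scarce. Slc12a4 had 4.38 to 10.6 CPM, Slc12a9 3.83 to 7.34 CPM and Slc12a7 2.61 to 6.93 CPM, with ranges that overlap in turn.

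**Figure D1:**
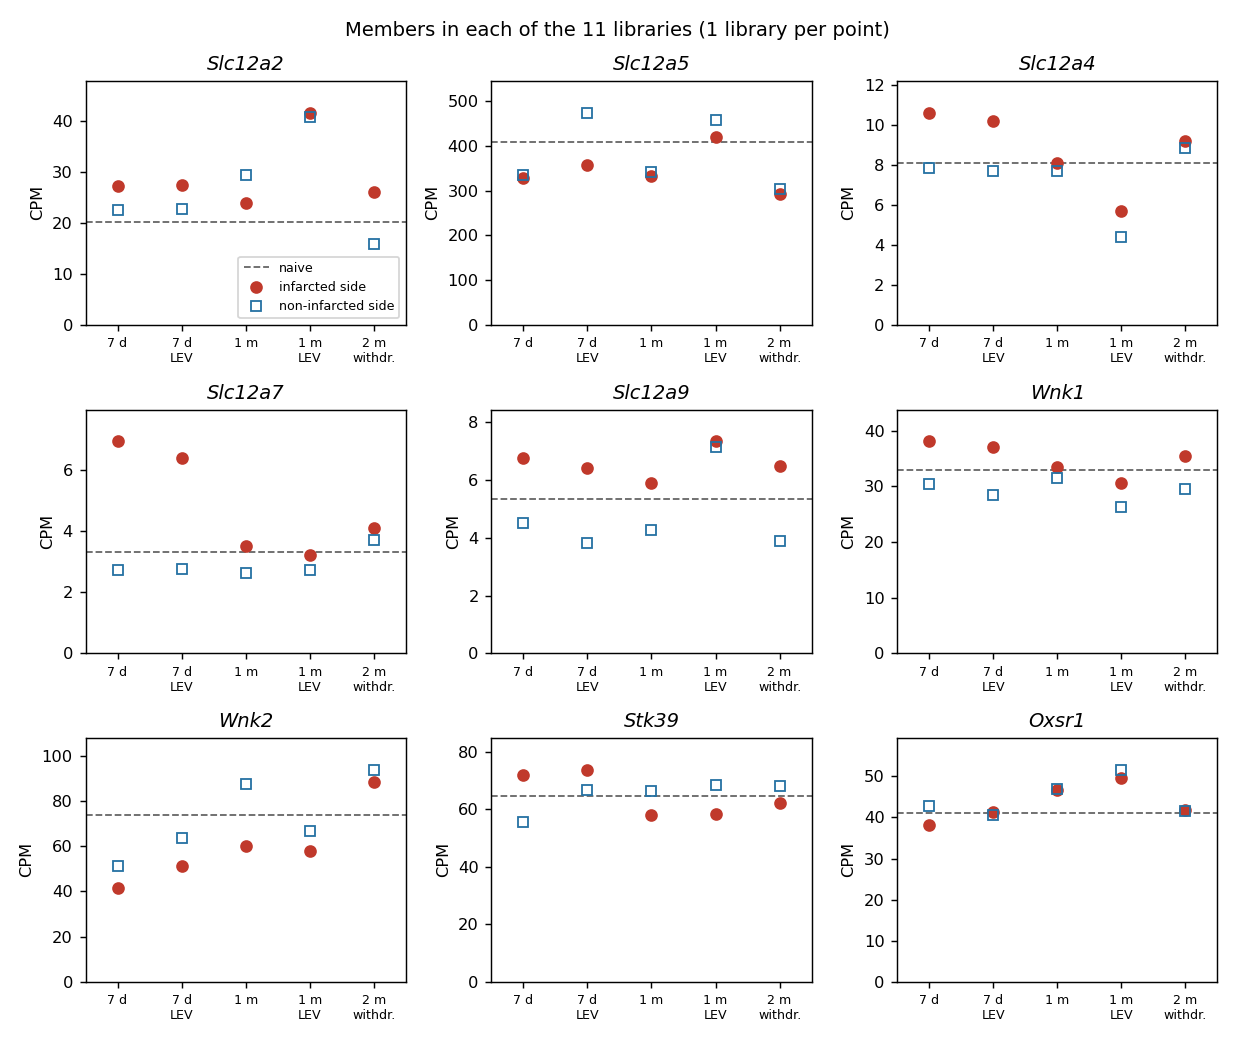
Level of each of the 9 genes (CPM) in the 11 libraries, 1 point per library, by state and side. Slc12a5 lies between 293 and 475 CPM and the scarce Slc12a4, Slc12a7 and Slc12a9 below 11 CPM.

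Spread over libraries separated these genes as well. The coefficient of variation over the 11 libraries was 9.06% for Stk39, 9.66% for Oxsr1 and 11.3% for Wnk1, against 25.6% for Wnk2, 29.3% for Slc12a2 and 38.8% for Slc12a7. Counting error alone would give 3.02% for Stk39, 2.99% for Wnk2, 3.67% for Oxsr1, 4.31% for Wnk1, 4.63% for Slc12a2 and 12.5% for Slc12a7, which rests on 36 to 115 tags. Each of these genes varied between libraries by more than counting error.

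The first comparison asks how the infarcted side differs from the other hemisphere. Of the 9 genes, Wnk2 fell on the infarcted side, and Slc12a7, Slc12a9, Slc12a4 and Wnk1 lay above the non-infarcted side in each of the 5 states without passing the test. The test was limma on log2(CPM + 1) with state as a factor, over the 5 states as repeats of the contrast (4 residual degrees of freedom), adjusted by Benjamini-Hochberg over 16229 genes and called at adjusted p under 0.05. It called 1 of the 9 genes, and of all genes tested it called 7%: 6.21% as higher and 0.789% as lower. The median log2 difference was 0.19 over the 9 genes and 0.01 over all genes. At unadjusted p under 0.05 there were 5 of 9, and 23.3% of all genes. Log2 values on this scale understate the change of low genes.

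For the importer Slc12a2, the infarcted side had 27.4, 27.5, 23.9, 41.6 and 26.1 CPM at 7 d, 7 d LEV, 1 m, 1 m LEV and 2 m, and the non-infarcted side 22.6, 22.7, 29.4, 40.8 and 15.9 CPM. The infarcted side was higher in 4 of 5 states and lower at 1 m, and the groups overlap. The log2 difference was 0.19 (SE 0.12, 95% interval -0.08 to 0.47, adjusted p = 0.393), which does not pass the test.

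For the neuronal exporter Slc12a5, the infarcted side had 329, 358, 332, 421 and 293 CPM in the same order of states, and the non-infarcted side 335, 475, 342, 459 and 305 CPM. The infarcted side was lower in 5 of 5 states, with ratios of 0.92 to 0.98 in 4 of them and of 0.76 (exact 95% interval on tags 0.73 to 0.78) at 7 d LEV. The log2 difference of -0.13 (SE 0.07, 95% interval -0.29 to 0.03) had an adjusted p of 0.314. The 8 neuronal markers (Rbfox3, Snap25, Syt1, Map2, Tubb3, Nefl, Stmn2 and Thy1) had a median log2 side difference of -0.18, with 0 of 8 called and 0 of 8 above 0. Their summed level was 5048 to 6684 CPM on the infarcted side and 5774 to 7687 CPM on the other; its part in these differences was not tested. In bulk cortex, fewer cells of a type and less RNA per cell cannot be told apart.

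The scarce exporter Slc12a7 had 6.93, 6.37, 3.52, 3.23 and 4.10 CPM on the infarcted side and 2.72, 2.76, 2.61, 2.71 and 3.70 CPM on the other. Both 7 d libraries of the infarcted side stand above all others, and the rest lie close together. The log2 differences per state were 1.09, 0.97, 0.32, 0.19 and 0.12, with a mean of 0.54 (SE 0.17, adjusted p = 0.0876). The 8 microglial markers (Cx3cr1, Csf1r, P2ry12, Tmem119, Aif1, C1qa, C1qb and C1qc) followed a like course: their summed level was 2025, 1745, 736, 744 and 601 CPM on the infarcted side and 304 to 406 CPM on the other, with 7 of 8 called higher. The summed level of 4 fibroblast markers was 56.1 to 1178 CPM on the infarcted side and 38.3 to 100.1 CPM on the other, with 4 of 4 called higher. The part of either cell type in the Slc12a7 values was not tested.

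Slc12a4 had 10.6, 10.2, 8.11, 5.67 and 9.18 CPM on the infarcted side and 7.84, 7.71, 7.70, 4.38 and 8.86 CPM on the other, a log2 difference of 0.24 (SE 0.09, adjusted p = 0.175). For Slc12a9 the infarcted side had 6.75, 6.43, 5.89, 7.34 and 6.50 CPM and the other 4.50, 3.83, 4.28, 7.14 and 3.88 CPM. Slc12a9 thus differed least at 1 m LEV, where both sides were highest. Its log2 difference of 0.43 (SE 0.11, 95% interval 0.18 to 0.68) had an adjusted p of 0.0538. It passed without the 1 m LEV libraries (0.53, adjusted p = 0.0291) and not without those at 7 d (0.150), 7 d LEV (0.203), 1 m (0.125) or 2 m (0.0970), nor with DESeq2 (0.169).

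Among the kinases, Wnk2 passed the test and Wnk1 did not. Wnk1, which most tissues express, had 38.1, 37.0, 33.4, 30.6 and 35.5 CPM on the infarcted side and 30.4, 28.4, 31.5, 26.3 and 29.6 CPM on the other, a log2 difference of 0.25 (SE 0.07, adjusted p = 0.0599). Wnk2, which is rich in brain, had 41.7, 51.3, 60.1, 58.0 and 88.5 CPM on the infarcted side and 51.3, 63.6, 87.4, 66.7 and 94.0 CPM on the other. Wnk2 was lower on the infarcted side in 5 of 5 states although the groups overlap, since both sides differ strongly between states. The log2 difference of -0.28 (SE 0.07, 95% interval -0.45 to -0.12) had an adjusted p of 0.0495, just inside the threshold. The call is lost without the 7 d (adjusted p = 0.129), the 7 d LEV (0.179), the 1 m (0.127) or the 1 m LEV libraries (0.0878), and it holds without those at 2 m (0.0306). Over all 15 alternative analyses it is kept in 6, with adjusted p from 0.0150 to 0.723 and a log2 difference from -0.34 to -0.22. Beside it, the median log2 side difference was -0.18 for the neuronal markers above and -0.20 for 6 inhibitory neuron markers; their part in the Wnk2 difference was not tested.

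The kinases directly above the cotransporters showed no side difference that passed the test. Stk39 had 72.0, 73.7, 57.8, 58.2 and 62.0 CPM on the infarcted side and 55.7, 66.7, 66.2, 68.3 and 68.2 CPM on the other: higher on the infarcted side in both 7 d states and lower in the 3 later ones. Its mean log2 difference was -0.01 (95% interval -0.22 to 0.20). Oxsr1 had 38.1, 41.3, 46.7, 49.7 and 41.8 CPM on the infarcted side and 42.8, 40.7, 46.8, 51.6 and 41.5 CPM on the other, with a log2 difference of -0.04 (95% interval -0.17 to 0.10).

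Of the 9 genes, 6 kept 1 sign in all 5 states: Slc12a4, Slc12a7, Slc12a9 and Wnk1 were higher on the infarcted side, and Slc12a5 and Wnk2 lower. Of all genes tested, 22.6% did so, 14.8% as higher and 7.83% as lower.

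**Figure D2:**
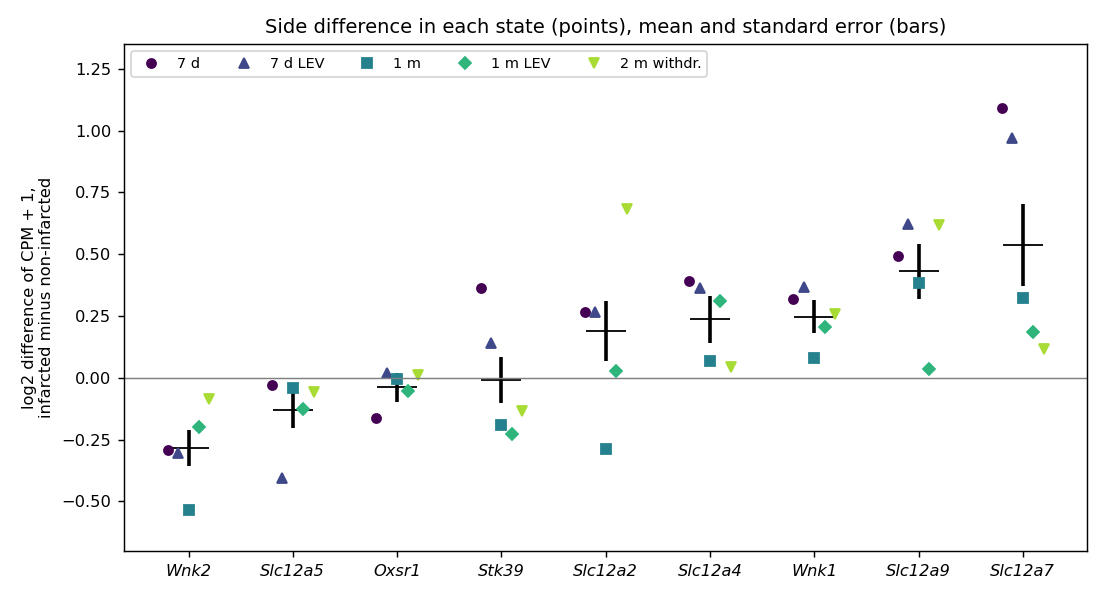
Infarcted minus non-infarcted log2(CPM + 1) for each of the 9 genes, 1 point per state, with the mean and its standard error (SE) from limma. The Wnk2 mean is -0.28 (SE 0.07). The Slc12a7 points at 7 d and 7 d LEV lie near 1 while its others are under 0.4.

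The ratio of exporter to importer RNA compares Slc12a5 with Slc12a2 inside a library, where the library total cancels. Both are measured in bulk cortex, so it is not a ratio within neurons. In naive cortex there were 20.2 Slc12a5 tags for each Slc12a2 tag. On the infarcted side there were 12.02, 13.0, 13.9, 10.1 and 11.2 at 7 d, 7 d LEV, 1 m, 1 m LEV and 2 m, all below naive and close together. On the non-infarcted side there were 14.9, 20.9, 11.6, 11.2 and 19.2, so 2 of these libraries lie near naive and 3 do not. The log2 ratio of Slc12a2 to Slc12a5, with a pseudocount of 1, was higher on the infarcted side in 4 of 5 states, by 0.32 ± 0.40 (SD, 5 states). An exact two-sided permutation test that exchanges the sides within states gave p = 0.1875, and the smallest p that this design allows is 0.0625. The median log2 side difference was -0.18 for the 8 neuronal, 0.19 for 6 astrocyte and 0.38 for 7 oligodendrocyte markers. The part of the cell mix in this ratio was not tested.

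**Figure D3:**
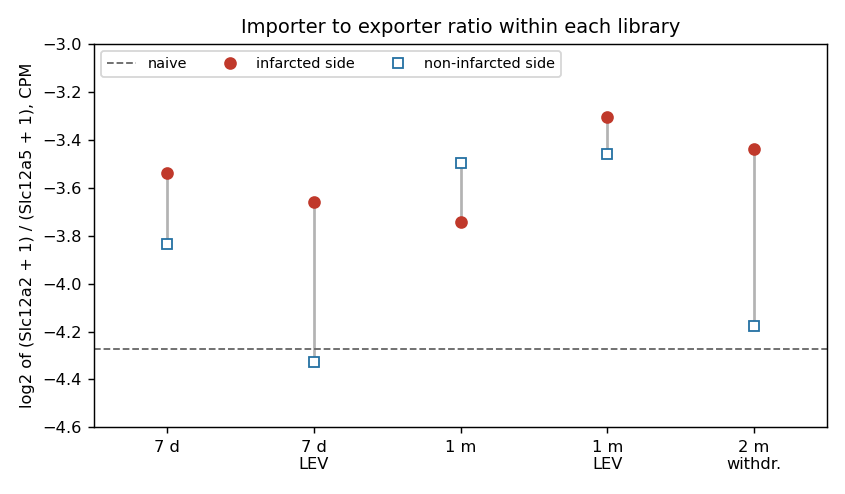
Log2 ratio of Slc12a2 to Slc12a5 CPM in each library, by state, with the infarcted side, the non-infarcted side and naive cortex marked. The infarcted side is above the other in 4 of 5 states and naive lies at -4.27, below every infarcted library.

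Against the naive library, none of the 9 genes passed the test on either side, and none reached an unadjusted p under 0.05. With limma over the 5 libraries of a side and the 1 naive library, which is assumed to vary like them, 0.00611% of genes were called on the infarcted side and 0% on the non-infarcted side. At unadjusted p under 0.05 there were 624 genes on the infarcted and 151 on the non-infarcted side, and DESeq2 called 27 and 1 genes, none of them among the 9. Slc12a2 was at 20.2 CPM in naive cortex and higher in 5 of 5 infarcted libraries, a log2 difference of 0.49 (95% interval -0.14 to 1.12). It was also higher in 4 of 5 non-infarcted libraries (0.30, 95% interval -0.55 to 1.15). All these signs rest on the same naive library. Slc12a5 was at 408 CPM in naive cortex and lower in 4 of 5 infarcted libraries, a log2 difference of -0.25 (95% interval -0.76 to 0.26). It was lower in 3 of 5 non-infarcted libraries (-0.12, 95% interval -0.74 to 0.51). Slc12a9, at 5.34 CPM in naive cortex, was also lower there than in 5 of 5 infarcted libraries, and Wnk1, at 32.9 CPM, was higher there than in 5 of 5 non-infarcted ones. For the other genes, naive values were 8.12 CPM for Slc12a4, 3.33 CPM for Slc12a7, 74.0 CPM for Wnk2, 64.7 CPM for Stk39 and 41.1 CPM for Oxsr1.

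Time was compared as 1 m against 7 d, with and without LEV, separately on each side. On the infarcted side Slc12a7 fell, and on the non-infarcted side Slc12a2 rose. These fits have 4 libraries and 1 residual degree of freedom, so the spread comes mostly from other genes. On the infarcted side 1 of 9 genes was called, where 16.7% of all genes were (11.4% as lower), and on the non-infarcted side 1 of 9, where 12.4% were (5.98% as higher).

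Slc12a7 on the infarcted side went from 6.93 to 3.52 CPM without LEV and from 6.37 to 3.23 CPM with it, so that neither 1 m library reached a 7 d one. The ratios were 0.51 (exact 95% interval on tags 0.36 to 0.72) and 0.51 (0.36 to 0.70), and the fitted log2 change was -0.81 (SE 0.21, adjusted p = 0.00488). DESeq2 on the tags did not call it (log2 -0.93, adjusted p = 0.271). On the same side 7 of 8 microglial and 4 of 4 fibroblast markers were called lower at 1 m, with medians of -1.27 and -2.80; their part in the Slc12a7 change was not tested. On the non-infarcted side Slc12a7 lay between 2.61 and 2.76 CPM at both times (log2 -0.03, 95% interval -0.47 to 0.41). The change of the side difference over time was -0.78 (SE 0.27, adjusted p = 0.0852), so the changes on the 2 sides are not shown to differ.

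Slc12a4 went the same way on the infarcted side without passing the test, from 10.6 to 8.11 CPM and from 10.2 to 5.67 CPM (log2 -0.55, adjusted p = 0.0507). Over 10 alternative analyses of Slc12a4 the adjusted p ran from 0.0356 with a pseudocount of 5 to 0.507 with DESeq2, and passed in 2. Wnk2 was higher at 1 m in each of the 4 pairs, with ratios of 1.44 and 1.13 on the infarcted side and 1.71 and 1.05 on the other. The log2 changes of Wnk2 were 0.35 (adjusted p = 0.102) and 0.41 (adjusted p = 0.113), and over 10 alternative analyses the adjusted p of the infarcted side ran from 0.0411 with median centring, which alone passed, to 0.319 with DESeq2.

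Slc12a2 on the non-infarcted side went from 22.6 to 29.4 CPM without LEV and from 22.7 to 40.8 CPM with it. The ratios were 1.30 (1.13 to 1.50) and 1.80 (1.60 to 2.02), and the log2 change was 0.59 (SE 0.16, adjusted p = 0.0231). The call is lost without the mean-variance trend (adjusted p = 0.0664) and with DESeq2 (0.0592). On the infarcted side the pairs went opposite ways, from 27.4 to 23.9 CPM and from 27.5 to 41.6 CPM (log2 0.20, adjusted p = 0.473). The difference between the sides was -0.40 (adjusted p = 0.211). The choroid plexus, which secretes cerebrospinal fluid, is rich in NKCC1, and its 6 markers (Ttr, Folr1, Kl, Kcne2, Clic6 and Otx2) summed to 205 CPM in the non-infarcted 1 m LEV library against 14.9 to 25.8 CPM in the other non-infarcted ones. The naive library, with the highest such sum at 365 CPM, had 20.2 CPM of Slc12a2, and the infarcted 1 m LEV library had 41.6 CPM of Slc12a2 and a sum of 33.5 CPM. The part of choroid plexus in the Slc12a2 values was not tested.

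Stk39 was the gene whose side difference changed with time. On the infarcted side it went from 72.0 to 57.8 CPM and from 73.7 to 58.2 CPM, ratios of 0.80 (0.73 to 0.88) and 0.79 (0.73 to 0.86). On the non-infarcted side it had ratios of 1.19 (1.09 to 1.30) and 1.02 (0.95 to 1.11). The change in the infarcted minus non-infarcted difference was -0.46 (SE 0.14, adjusted p = 0.0399), the single call among the 9 genes where 5.47% of all genes were called, 5.23% as lower. That call is kept in 2 of 10 alternative analyses, where adjusted p ran from 0.0309 to 1.00. The side difference of cell type markers also changed over this time: 7 of 8 microglial (median -0.99) and 4 of 4 fibroblast markers (-2.37) were called lower, and 2 of 5 striatal markers higher (0.53). Their part in the Stk39 value was not tested. On either side alone Stk39 did not pass (infarcted -0.32, adjusted p = 0.114; non-infarcted 0.14, adjusted p = 0.565).

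LEV was compared with no LEV at 7 d and 1 m, and none of the 9 genes passed the test on the infarcted side, the non-infarcted side or the side difference. Of all genes, 0.518%, 0.00628% and 0.173% were called. At unadjusted p under 0.05 there were 8.35%, 5.01% and 3.32% of all genes, and 1, 1 and 0 of the 9. The first was Slc12a2 on the infarcted side (log2 0.39, adjusted p = 0.466), and the second Slc12a5 on the non-infarcted side (log2 0.46, adjusted p = 0.963).

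As single libraries, the LEV pairs of Slc12a2 differed by time. At 7 d the ratio of LEV to no LEV was 1.00 (0.88 to 1.14) on the infarcted and 1.01 (0.88 to 1.15) on the non-infarcted side, and at 1 m it was 1.74 (1.53 to 1.99) and 1.39 (1.23 to 1.57). These intervals cover counting error only, so they compare libraries and not conditions. Slc12a5 had ratios above 1 in all 4 pairs, 1.09 and 1.27 on the infarcted and 1.42 and 1.34 on the non-infarcted side. Slc12a4 had 0.96 and 0.98 at 7 d, and 0.70 (0.53 to 0.92) and 0.57 (0.43 to 0.76) at 1 m. The ratios of Stk39 were 1.02 and 1.01 on the infarcted side and 1.2 and 1.03 on the other.

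After withdrawal, the 2 m libraries can be set only against those at 1 m with LEV, so that time and withdrawal cannot be told apart, and no test was made. Slc12a2 was lower at 2 m, with ratios of 0.63 (0.56 to 0.70) on the infarcted and 0.39 (0.34 to 0.45) on the non-infarcted side, and Slc12a5 was lower with 0.70 (0.67 to 0.72) and 0.66 (0.64 to 0.69). Slc12a4 had ratios of 1.62 (1.26 to 2.08) and 2.02 (1.55 to 2.66), and Wnk2 1.52 (1.41 to 1.65) and 1.41 (1.31 to 1.52). The importer and KCC2 thus lay lower, and KCC1 and Wnk2 higher, in both 2 m libraries than in the 1 m LEV ones. Oxsr1 was slightly lower, with 0.84 and 0.80, while Stk39 had 1.07 and 1.00 and Wnk1 1.16 and 1.12. Slc12a9 had 0.89 (0.69 to 1.14) and 0.54 (0.40 to 0.73), and Slc12a7 1.27 (0.89 to 1.82) and 1.36 (0.94 to 1.99). Of all 11 libraries, those at 1 m LEV were the highest for Slc12a2 and the lowest for Slc12a4. At 2 m, Slc12a2 had 26.1 CPM on the infarcted and 15.9 CPM on the non-infarcted side, against 20.2 CPM in naive cortex. Slc12a4 had 9.18 and 8.86 CPM, against 8.12 CPM in naive cortex.

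**Figure D4:**
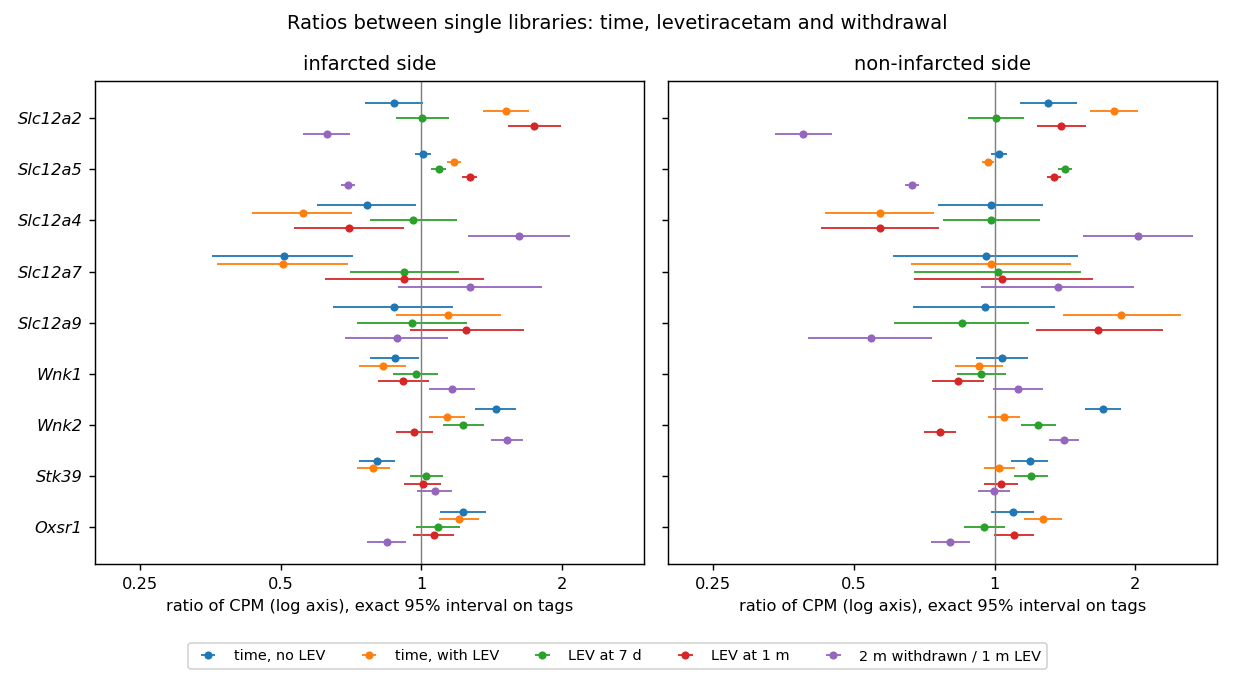
Ratio of CPM between single libraries (log axis) for each gene on the infarcted (left) and non-infarcted (right) side, with exact 95% intervals on tags: time without and with LEV, LEV at 7 d and 1 m, and 2 m withdrawn over 1 m LEV. Slc12a7 lies at 0.51 in both time pairs of the infarcted side, and Slc12a2 lies near 1 for LEV at 7 d and above 1 for LEV at 1 m on both sides.

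The 1 m LEV state stood out for several of these genes. Both of its libraries were above the other 9 libraries for Slc12a2, Slc12a9 and Oxsr1, and below them for Slc12a4; of all genes, 19.8% had both libraries of that state at an extreme. At 2 m both libraries were highest for Wnk2 and lowest for Slc12a5, where 16% of genes were at an extreme, and at 7 d both were lowest for Wnk2, where 5.87% were. No gene of the 9 was at an extreme in the 7 d LEV or 1 m states, where 3.11% and 6.35% of all genes were.

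Other genes of the pathway were counted from lists. Of 13 further cotransporters, kinases, adaptors and ligase parts of the WNK pathway, 9 were tested for side and 0 were called. Slc12a8 and Wnk3 were under the expression limit, and Slc12a1 and Slc12a3 are not analysed here. Of 14 regulators and partners of KCC2, 1 was called, a share near the 7% of all genes: Egr4, a transcription factor known to drive the KCC2 gene, was lower on the infarcted side by a log2 difference of -0.34 (SE 0.07, adjusted p = 0.0264). Egr4 was also called lower at 1 m than at 7 d on both sides (infarcted -0.42, adjusted p = 0.0371; non-infarcted -0.66, adjusted p = 0.00907), while Slc12a5 was not. Of 14 other chloride and bicarbonate transporters 0 were called for side, and of 6 sodium pump subunits 1 was, Atp1b3 (0.28, adjusted p = 0.043).

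With time, Sgk1, a kinase that acts on WNK signalling, fell on both sides. Its levels were 102 and 130 CPM at 7 d and 55.7 and 62.3 CPM at 1 m on the infarcted side, and 93.3 and 106 CPM against 47.9 and 54.0 CPM on the other. The log2 change was -0.96 on each side (adjusted p = 5.89e-07 and 0.000628). Of the same 9 pathway genes Klhl3, the substrate adaptor that leads WNKs to degradation, also fell on the non-infarcted side (-0.48, adjusted p = 0.0388). Clcn2, a chloride channel, rose on both sides (0.62, adjusted p = 0.00293; 0.56, adjusted p = 0.0192), as did Lrrc8a, the required subunit of the volume-regulated anion channel (0.47, adjusted p = 0.0173; 0.50, adjusted p = 0.0407), and Lrrc8b rose on the non-infarcted side (0.52, adjusted p = 0.0253). The transporters called were 2 and 3 of 14, and the pathway genes 1 and 2 of 9, on the infarcted and non-infarcted side. Of all genes, 16.7% and 12.4% were called there.

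Of the 14 KCC2 partners, 2 were called higher and 2 lower with time on the infarcted side, where 16.7% of all genes were. Egr4, given above, was 1 of the lower ones. Neto2, an auxiliary subunit of kainate receptors that binds KCC2 (0.44, adjusted p = 0.043), and Grik2, a kainate receptor subunit (0.52, adjusted p = 0.00712), rose. Rest, a repressor of neuronal genes, fell (-0.64, adjusted p = 0.0334). Infarcted Neto2 went from 35.2 to 38.6 CPM without LEV and from 39.9 to 67.4 CPM with it. On the non-infarcted side Neto2 went from 48.3 to 45.7 CPM and from 42.1 to 66.0 CPM. Rest also had a side difference that changed with time (-0.96, adjusted p = 0.0198), 1 of 14 partners called where 5.47% of all genes were. With LEV, and against naive cortex, 0 genes of these 4 lists were called.

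The genes most like each of the 9 were taken by Pearson's r of log2(CPM + 1) over the 11 libraries, among 10938 genes with a mean of at least 10 CPM. For Slc12a2 they were Arglu1 (r = 0.960), Mir7654 (0.956) and Taf10 (0.955), and for Slc12a5 St3gal5 (0.925), Zdhhc1 (0.920) and Dnm3 (0.917). Slc12a7 was closest to Gpr34 (0.976), a receptor of microglia, then to H2bc12 and Gm44390 (0.974 each), which hold identical values. Wnk2 was closest to Ncoa1 (0.968), Slc12a4 to Fan1 (0.968), Oxsr1 to Jag2 (0.943), Slc12a9 to Scrg1 (0.935) and Wnk1 to Etv6 (0.933). Stk39 had no gene above its 0.823 with Specc1l. Among the 9 themselves, r was 0.83 for Slc12a7 and Wnk1, 0.80 for Slc12a4 and Wnk1, -0.87 for Slc12a4 and Oxsr1, and 0.43 for Slc12a2 and Slc12a5. These values describe 11 libraries that share states and sides.

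Library totals ran from 12928291 to 21000367 tags, of which 92.3% to 97.3% lie in the table's genes, and 3 tags correspond to 0.143 to 0.232 CPM. Each listed neuronal, glial and vascular marker was detected, cortical excitatory neurons included, and neighbouring striatum markers summed to 329.6 to 619 CPM on the infarcted and 380.1 to 459.9 CPM on the non-infarcted side. Reactive astrocyte markers summed to 455 to 755 CPM on the infarcted side and 134 to 232 CPM on the other, with 3 of 3 called higher, and oligodendrocyte markers were called higher in 6 of 7; their part in the values above was not tested.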

How the data were processed

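CAGE tags were measured in 11 cortex libraries, 1 per group, grouped by the labels. The deposited values are CPM per gene, scaled by the authors to each library's total; every value is a whole number of tags within 0.01 tag, so the tag counts were recovered. Builds and tools in the submitters' processing notes are GRCm38, HISAT2 2.0.5, BWA 0.7.17 and DESeq2 1.20.0, with no role stated. Of the gene identifiers, 99.8% matched GENCODE M21.

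Genes averaging 1 CPM or more in a comparison's libraries entered limma 3.58.1 (mean-variance trend, R 4.3.3) as log2(CPM + 1), with Benjamini-Hochberg adjustment over all genes. Ratios of single libraries carry exact 95% intervals on tags, which cover counting error only. Where no label tells whether libraries come from separate mice, p-values measure the spread between these libraries, which may be technical.

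The 9 genes and the lists were chosen with earlier results of these data known. All 9 are given in every comparison; listed genes are named where they passed, at most 4 per list, or as background. Alternatives were pseudocounts of 0.25 and 5, no expression limit, at least 5 CPM, median centring, TMM, no trend, edgeR 4.0.16 and DESeq2 1.42.0 on recovered tags, no second factor, and leaving out each state. The script was tested on simulated data.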

Additional observations from a re-analysis of the deposited data

Results flagged for a closer look

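The time course of Stk39 differed between the sides: 1 m minus 7 d was negative in both infarcted pairs (-0.31 and -0.34 on the log2 scale) and positive in both non-infarcted pairs (0.25 and 0.03). The difference between the sides, infarcted minus non-infarcted, was -0.46 and passed the test (adjusted p = 0.0399 in limma). That call is kept in 2 of 10 alternative analyses. The second non-infarcted pair is within its counting interval of no change.

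The LEV pairs of Slc12a7 were negative on the infarcted side (-0.11 and -0.10) and positive on the non-infarcted side (0.02 and 0.04), a difference of -0.13. Tested with limma, that difference had a p of 0.639 and an adjusted p of 1.00.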

How the results depend on the processing

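Over the 9 genes and all comparisons, 935 alternative values were computed, of which 28 changed sign, none of them in a called result. In 880 the direction and side of the threshold were kept or, for the untested 2 m ratios with TMM, the value stayed inside the counting interval. The 2 m ratios of Slc12a5 moved outside it with TMM, to 0.645 on the infarcted and 0.636 on the non-infarcted side. For side, 0 of the 9 genes were called with a pseudocount of 5, with no expression limit, with a mean CPM of at least 5, without the trend and without the state factor, and 0 to 1 on leaving out each state. For 1 m against 7 d on the infarcted side, 2 were called with a pseudocount of 5 and at a mean CPM of at least 5 (Slc12a7 and Slc12a4) and with median centring (Slc12a7 and Wnk2), and 0 with DESeq2. On the non-infarcted side 0 were called without the trend and with DESeq2. For the change of the side difference, 0 were called with a pseudocount of 0.25, no expression limit, median centring, TMM, no trend, edgeR, DESeq2 or no LEV factor, and 2 (Stk39 and Slc12a7) with a pseudocount of 5. Except where an alternative tests other genes or leaves out samples, the cause was not tested. Genes called for side numbered 1136 (88.7% higher) in the main analysis, 245 without the state factor, 103, 161, 71, 1174 and 1288 without 7 d, 7 d LEV, 1 m, 1 m LEV and 2 m, and 1271 with median centring (69.1% higher).

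The sign changes lie near 0. On leaving out each state, Stk39 ran from -0.104 to 0.0448 for side, -0.056 to 0.0303 for infarcted against naive and -0.0166 to 0.0562 for non-infarcted against naive, and Wnk2 from -0.162 to 0.0536 for non-infarcted against naive. For 1 m against 7 d, Slc12a9 on the infarcted side was 0.00019 with a pseudocount of 5, 0.073 with centring, 0.016 with TMM, 0.056 with edgeR and 0.052 with DESeq2. On the non-infarcted side, centring, TMM, edgeR and DESeq2 gave 0.040, 0.026, 0.067 and 0.061 for Slc12a5 and 0.022, 0.0064, 0.047 and 0.042 for Wnk1, and centring, edgeR and DESeq2 gave 0.018, 0.033 and 0.028 for Slc12a7. Stk39 with LEV on the infarcted side was -0.0039 with TMM.

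The time and LEV tests have 1 residual degree of freedom, so leaving out a single library was not run. The labels carry no replicate numbers, and the state factor of the main side test pairs the sides within states. Slc12a4, Slc12a7 and Slc12a9 rest on 36 to 176 tags per library, where counting error limits precision most.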
